A study of Mus musculus with 2 samples.

Results

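The cells described here are basal keratinocytes (KCs) of the mouse epidermis that carried transcripts of late G2 phase and mitosis. They were 567 of the 6702 basal cells by the limits below, and of 19488 epidermal cells that passed the filter (26683 barcodes in all). A cell was taken if Krt14 and Krt5, the keratins of the basal layer, made up at least 0.8% of its unique molecular identifiers (UMIs), if Krt1 and Krt10, the keratins of the layers above, made up less than 0.8%, if it held at most 1 UMI of Lhx2, a transcription factor gene of the hair follicle, and if Cenpf, Ccnb1 and Ube2c together had at least 6 UMIs. Only cells with 900 to 7700 genes and under 10% of UMIs from mitochondrial genes were considered. The values of these genes therefore chose the cells, and they are given below as a description with no test.

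All cells came from the epidermis of 2 male C57BL/6J mice at postnatal day 0, KO mouse 1 and KO mouse 2, with 1 single-cell library each. Both were knockouts (KO) that lacked Chrm3 in the whole body, and Chrm3 encodes the muscarinic receptor M3 for acetylcholine. Every group compared here shares this knockout, and no wild-type cells were analysed here, so no difference between genotypes was tested. The epidermis was freed from the skin by an overnight separation step in buffer, and the cell suspension was depleted of dead cells. The labels name version 1 of the 10x chemistry and the methods of the study version 3.1. KO mouse 1 had 10816 barcodes with 109756784 UMIs, and KO mouse 2 had 15867 with 166441732.

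The epidermis renews itself from its basal layer, in which KCs bound to the basement membrane divide and from which daughters leave to differentiate. Before mitosis a cell builds up cyclin B with its kinase CDK1, the motors of the spindle and the proteins of the kinetochore. The anaphase-promoting complex then marks cyclins and other proteins for destruction, so that the chromosomes separate. Many of these genes are repressed in resting cells by the DREAM complex and switched on late in the cycle by B-MYB and FOXM1.

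Some libraries and cells stood apart before any comparison. A total of 127 barcodes occurred in both libraries, of which 0 belonged to the G2/M basal cells of KO mouse 1 and 1 to those of KO mouse 2. A doublet score marked 5 G2/M basal cells of 197 in KO mouse 1 (2.54%) and 22 of 370 in KO mouse 2 (5.95%). The G2/M cells were also deeper than other basal cells. Their median was 16302 UMIs in KO mouse 1 and 16212 in KO mouse 2, against 8660 and 8669 in resting basal cells. When each cell was thinned to 5000 UMIs, the G2/M cells still had a median of 1996 and 1978 genes, against 1836 and 1810 in resting cells. This left out 2 and 5 G2/M cells and 23 and 70 resting cells with fewer UMIs.

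Chrm3, on chromosome 13 from 9875486 to 10360847 of GRCm38 (mm10, minus strand), had 0 UMIs in the G2/M basal cells of either mouse. A count of 0 allows up to 0.926 counts per 1000000 UMIs (CPM) in KO mouse 1 and up to 0.498 in KO mouse 2. Over all cells kept, 13 UMIs were assigned to the gene in KO mouse 1 and 19 in KO mouse 2. Which part of the gene was deleted, and whether the 3' tags counted here lie in it, is not given in the sources used here, so these counts check no label. Other receptors of acetylcholine were also near the limit of detection. Of Chrm1, which encodes the M1 muscarinic receptor, 2 and 5 UMIs were found, and of Chrnb2, a nicotinic receptor subunit gene, 4 and 3. Chrm2, Chrm4, Chrm5, Chrna3, Chrna7, Chrna9 and Chrnb4 had 0 in both mice. Intervals and limits given for counts and shares cover counting error only.

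The 3 genes of the rule act in mitosis. Cenpf encodes a protein of the outer kinetochore, Ccnb1 cyclin B1, and Ube2c the ubiquitin-conjugating enzyme of the anaphase-promoting complex. Stretches of 110 bases that end just before the RefSeq start of each gene, and of Cdc20, which encodes the activator of the same complex, are shown because promoters of such genes are known to share short motifs. The GENCODE starts of Ccnb1, Ube2c and Cdc20 differ from these and lie inside the stretches. The sequences are from RefSeq (GRCm38.p6), printed 5' to 3' on the strand of the gene. Capitals mark CCAAT, and TTTGAA or TTCGAA (the CHR motif bound by DREAM, B-MYB and FOXM1 complexes), on either strand. The stretches lie at chr1:189688087-189688196 (minus strand) for Cenpf, chr13:100786487-100786596 (minus strand) for Ccnb1, chr2:164769819-164769928 (plus strand) for Ube2c and chr4:118437344-118437453 (minus strand) for Cdc20.
Cenpf: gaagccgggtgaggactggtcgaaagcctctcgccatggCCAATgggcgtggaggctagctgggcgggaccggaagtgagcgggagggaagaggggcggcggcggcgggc
Ccnb1: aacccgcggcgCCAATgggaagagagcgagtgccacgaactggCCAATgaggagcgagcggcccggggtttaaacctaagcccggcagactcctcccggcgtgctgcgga
Ube2c: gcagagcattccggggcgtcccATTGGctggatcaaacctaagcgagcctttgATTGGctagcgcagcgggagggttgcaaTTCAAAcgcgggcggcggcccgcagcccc
Cdc20: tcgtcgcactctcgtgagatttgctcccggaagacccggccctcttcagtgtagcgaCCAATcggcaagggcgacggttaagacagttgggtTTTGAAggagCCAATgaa

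In windows of 300 bases (250 before to 50 after the start), CHR letters were in the promoters of 53 of 83 matched genes (63.9%) among 98 mitotic genes, the 3 rule genes included. Over all 27025 genes of the table they were in 21.7%. CCAAT was in 73.5% of the mitotic genes and in 41.1% of all genes, and both motifs were in 50.6% against 8.61%. Genes of DNA replication differed in this respect. Of 32 matched genes 18.8% held CHR letters, and 21.9% held an E2F motif (TTTGGCGC or TTTCGCGC), against 4.82% of the mitotic genes and 0.929% of all genes. Matches were counted on both strands, a window could hold several motifs, and matches of different motifs may share letters. Such a match is a description of the letters only.

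The label was set against genes that the rule did not use and that mark dividing cells in general. Mki67, which encodes a protein that coats mitotic chromosomes, had a UMI in 192 of 197 G2/M cells of KO mouse 1 (97.5%, 95% interval 94.2 to 99.2, by the exact Clopper-Pearson method as for all shares here) and in 362 of 370 in KO mouse 2 (97.8%, 95.8 to 99.1). In resting basal cells the shares were 5.51% and 8.13%. Top2a, which encodes the topoisomerase that untangles sister chromatids, had a UMI in 90.9% and 92.7% of G2/M cells, against 8.58% and 9.02% of resting cells. In the S-phase basal cells described below, Mki67 had a UMI in 40.5% and 44.8% and Top2a in 52.7% and 60.0%, so a UMI of these genes does not by itself tell G2/M from S phase. Scaled to the total UMIs, which takes out the difference in depth, Mki67 stood at 603 and 527 CPM in G2/M cells, at 126 and 108 in S-phase cells and at 6.60 and 10.8 in resting cells.

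Genes of the basal layer were set against cells with at least 0.8% Krt1 and Krt10 and less than 0.8% Krt14 and Krt5 (309 and 360 cells, median 18685 and 18799 UMIs). Col17a1, a component of the hemidesmosome, had a UMI in 97.5% and 95.4% of the G2/M cells and in 28.5% and 27.5% of those cells. Trp63, the master transcription factor gene of stratified epithelia, was found in 91.9% and 90.5% against 70.6% and 69.2%. Krt15, a basal keratin gene, was found in 99.0% and 97.8% against 89.0% and 90.0%, so its detection tells little of the layer. The interfollicular origin rests on the limit on Lhx2 alone. Krt17, a keratin gene of follicles and of activated KCs, had at least 5 UMIs in 71.6% and 76.2% of the G2/M cells, and Sox9, a follicle transcription factor gene, at least 1 UMI in 42.1% and 37.6%. The cells are therefore called G2/M basal cells below.

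Transcripts of other epidermal cells were spread over many G2/M basal cells at low counts. A UMI of a granular marker was found in 54.3% and 64.6% of the cells, of an inner root sheath marker in 45.7% and 54.9%, and of a sebaceous marker in 38.6% and 34.9%, with at least 5 UMIs of a list in no more than 1.89% of the cells. Krt79 was found in 31.5% and 40.3%, and most of its UMIs lay in few cells. Of Krt79, a keratin gene of the upper follicle and sebaceous duct, 1236 UMIs were counted in KO mouse 1, of which 92.8% lay in 3 cells, and 1192 in KO mouse 2, of which 61.8% lay in 3 cells. Of the 184 and 672 UMIs of 6 melanocyte markers, 170 and 268 lay in 1 cell each. T cell markers gave 71 UMIs in KO mouse 1, all in 1 cell, and 0 in KO mouse 2. Of 9 Langerhans cell markers there were 19 and 147 UMIs, and Cd207, the defining one, was at 0 in both mice. Markers of Merkel cells summed to 1 UMI in each mouse, with Krt8 and Krt20 at 0, and those of endothelium to 4 and 5.

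G2/M basal cells made up 8.05% of the basal cells of KO mouse 1 (197 of 2448, 95% interval 7.0 to 9.20) and 8.70% in KO mouse 2 (370 of 4254, 95% interval 7.87 to 9.58), or 8.37% ± 0.460 (SD, n = 2). The share rests on the limits. Among basal cells with 10000 to 30000 UMIs it was 15.3%, and with under 5% mitochondrial UMIs 14.8%. Of all cells with at least 6 UMIs of the 3 genes, basal cells were 16.4% in KO mouse 1 (197 of 1199) and 20.8% in KO mouse 2 (370 of 1775).

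The summed UMIs of the 3 genes ranged from 6 to 103 in the G2/M cells of KO mouse 1 and from 6 to 106 in KO mouse 2, with medians of 15 and 17. Cenpf had a median of 7 UMIs in both mice, Ccnb1 of 3 and 4, and Ube2c of 5 and 7. No gap separated members from the other basal cells. In KO mouse 1, 20 cells lay just outside the limit with 5 UMIs and 15 just inside with 6, and in KO mouse 2, 33 and 32. Cells just outside held 350 and 321 CPM of Mki67, and those just inside 422 and 416.

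**Figure D1:**
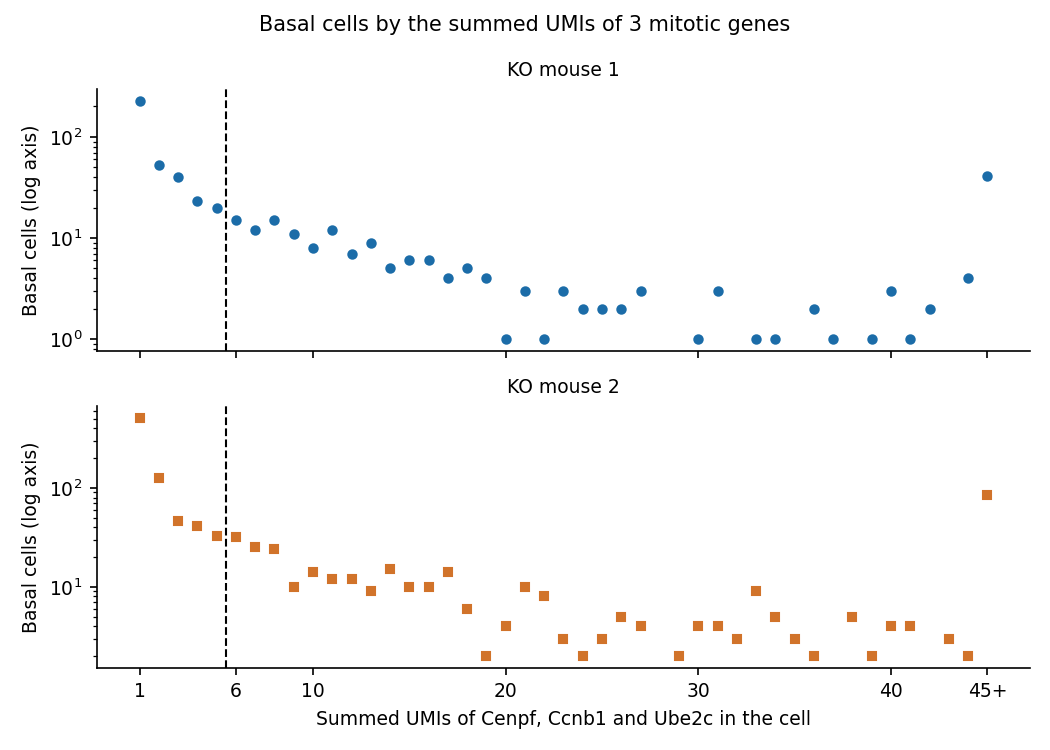
Number of basal cells (log axis) at each summed UMI count of Cenpf, Ccnb1 and Ube2c, from 1 up, in KO mouse 1 (top) and KO mouse 2 (bottom), with cells at 45 and over pooled in the last point and sums that no cell had left blank. The dashed line marks the limit between 5 and 6 UMIs, across which the numbers fall without a gap, from 20 to 15 cells and from 33 to 32.

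The G2/M basal cells were not uniform. Those with few UMIs of the rule genes held more transcripts of S phase, and those with many held more transcripts of late mitosis. A late list of 7 genes (Cdc20, Plk1, Aurka, Ccnb2, Cenpe, Cenpa and Kif20a) summed to 846 CPM in cells of KO mouse 1 with 6 to 9 UMIs, and to 1276, 1652 and 2805 in cells with 10 to 19, 20 to 39 and at least 40. In KO mouse 2 the same steps were 1059, 1137, 1641 and 2538 CPM. A list of 10 S-phase genes, which include the replicative helicase genes Mcm3, Mcm5 and Mcm6, went the other way, from 610 to 241 CPM and from 489 to 244 CPM. Pcna, the gene of the sliding clamp of DNA replication and not in that list, fell along with it from 134 to 31.6 CPM and from 105 to 36.1. Of the G2/M cells, 32 in KO mouse 1 (16.2%) and 22 in KO mouse 2 (5.95%) reached the limit on the S-phase list used below for S-phase cells. These levels follow from the order of the cells by the rule genes and were not tested.

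**Figure D2:**
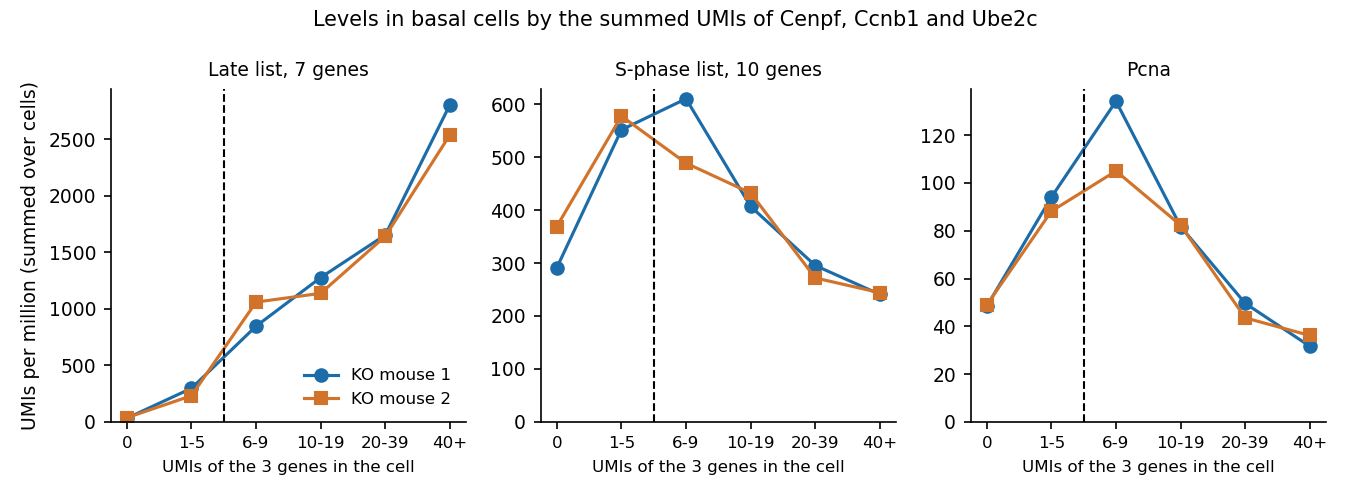
CPM (UMIs per 1000000), summed over cells, of the late list, the S-phase list and Pcna (panels) in basal cells grouped by their summed UMIs of Cenpf, Ccnb1 and Ube2c (x axis), with circles for KO mouse 1 and squares for KO mouse 2. To the right of the dashed line lie the G2/M basal cells, in which the late list climbs to 2805 and 2538 while the S-phase list and Pcna fall in both mice.

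An early list (Top2a, Mki67, Cdk1, Ccna2, Hmgb2 and Smc4) and the late list were set against each other in every G2/M cell, and the cells of each mouse were split at the median of the difference. The early group held 99 and 185 cells and the late group 98 and 185. The groups differed mainly in the late list, which summed to 841 and 1000 CPM in the early group and to 2592 and 2438 in the late group. The early list differed little and in opposite directions in the mice, at 4441 and 4455 CPM against 4744 and 4149. The rule genes had a median sum of 11 and 14 UMIs in the early group and 35 and 34 in the late group. The groups are ranges of a score, with 37 and 57 cells within 0.25 of the limit on the log2 scale, and genes in them are given as values with no test. The shares of both lists rose together across cells, with a Spearman rho of 0.392 over 197 cells and 0.292 over 370. The cells of a mouse share a library and its depth.

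The early group held more of several genes of S phase and of the entry into it. Ccne1, the gene of cyclin E1 that drives cells into S phase, stood at 33.3 and 36.9 CPM in the early group and at 1.28 and 1.43 in the late group of KO mouse 1 and KO mouse 2. Slbp, whose product binds the stem-loop of replication-dependent histone mRNAs and is destroyed as S phase ends, went from 177 and 173 CPM to 37.1 and 36.8. The linker histone gene Hist1h1b went from 3240 and 2228 CPM to 557 and 320. Mybl2, which encodes B-MYB, went from 38.7 and 35.1 CPM to 8.96 and 6.79, and E2f7, a repressor of E2F targets, from 49.4 and 39.4 to 14.7 and 21.1. In each of these genes both mice were lower in the late group. The 38 genes of DNA replication summed to 3770 and 3415 CPM in the early group and to 1586 and 1424 in the late group.

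The late group held more of several genes of mitosis beyond those that defined it. Cdkn3, the gene of a phosphatase that acts on CDK1 and CDK2, went from 21.4 and 26.1 CPM to 81.3 and 97.9. Cdc25b, the gene of a phosphatase that activates CDK1, went from 48.8 and 64.3 CPM to 153 and 166. The tubulin genes differed in direction. Tuba1c and Tubb4b went from 78.0 and 64.9 CPM to 170 and 160, and from 1031 and 1272 to 2057 and 2273, while Tubb5 went from 2895 and 2905 CPM to 2390 and 2054 and Tuba1b from 962 and 973 to 853 and 738. Not all late genes belonged to the division machinery. Sox4, a transcription factor gene of basal progenitors, stood at 389 and 436 CPM in the early group and at 681 and 642 in the late group, and Cdkn1b, the gene of the CDK inhibitor p27, at 129 and 105 and at 189 and 132. Foxm1 differed in direction between the mice, at 94.1 and 81.3 CPM in the early group and 96.7 and 66.5 in the late group.

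**Figure D3:**
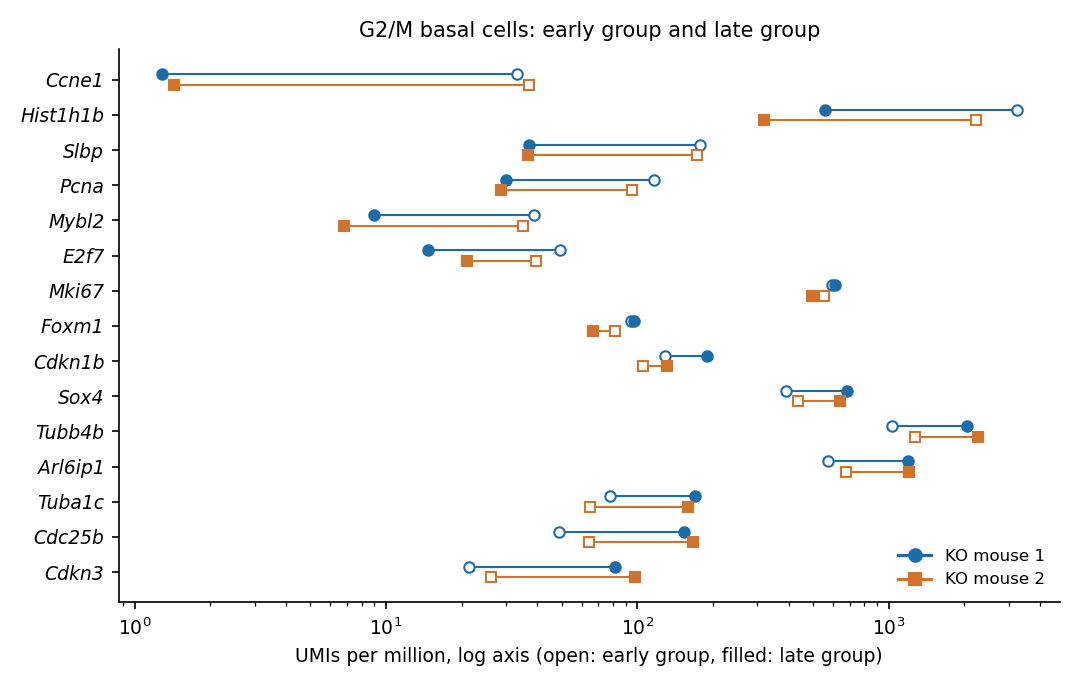
CPM (log axis) of 15 genes in the early group (open symbols) and the late group (filled symbols) of the G2/M basal cells, with circles for KO mouse 1 and squares for KO mouse 2. Ccne1 and Slbp lie to the left in the late group and Cdc25b and Cdkn3 to the right in both mice, while Mki67, which is in the early list, stays close to its level.

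For comparisons between groups of cells, UMIs were summed per mouse and group. A single quasi-likelihood model in edgeR covered 11003 genes, and p-values were adjusted over all of them by the Benjamini-Hochberg method, with genes called at an adjusted p under 0.05. CPM in these comparisons is scaled by edgeR's TMM method, and a fold change above 0 on the log2 scale is higher in G2/M basal cells. Resting basal cells (944 and 1563) met the same limits on keratins and Lhx2, had 0 UMIs of the 3 rule genes and lay at or below the median share of the S-phase list. S-phase basal cells (338 and 583) had at most 5 UMIs of the rule genes and a share of the S-phase list in the top 15% of their mouse. G2/M follicle cells (27 and 112) met the same keratin limits and the limit of 6 UMIs but had at least 2 UMIs of Lhx2. The groups were cut on UMI counts of the same cells, so for genes that are known to cycle with the rule genes the values against resting and S-phase cells are a description. With 2 mice, p-values measure the spread between 2 animals.

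Against resting cells the G2/M basal cells differed first in the division machinery, by construction. Of all genes 2337 (21.2%) were called, 1413 (12.8%) higher and 924 (8.4%) lower in G2/M cells. A block for the mouse raised the count to 3653, and a limit of 5% on mitochondrial UMIs, which kept 52 and 191 of the G2/M cells, lowered it to 781. With called doublets left out 1224 genes were higher and 1303 lower. Called higher were 24 of 24 mitotic kinases, cyclins and checkpoint genes (median log2 fold change 4.99), 19 of 20 kinetochore genes (5.04), 30 of 30 spindle and cytokinesis genes (5.56) and 21 of 21 genes of chromosome structure (2.20). The median over all genes tested was −0.02. Nothing is read from these counts, since the rule chose the cells by genes of this kind.

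The levels show how far apart the groups were. Aurkb, the kinase gene of the chromosomal passenger complex, stood at 177 ± 0.599 CPM (SD, n = 2) in G2/M cells and at 1.21 ± 0.280 in resting cells. Nusap1, which encodes a spindle microtubule bundler, stood at 330 ± 3.55 and 2.46 ± 0.612 CPM, and Kif14, a kinesin gene of cytokinesis, at 32.6 ± 0.226 and 0.187 ± 0.0545. In each of these genes the mice were close to each other and the groups far apart. With Pif1, Iqgap3, Aspm, Kif2c, Hmmr, Troap and Fam64a they made up the 10 genes with the largest rise. Pcna stood at 75 and 65.1 CPM in G2/M cells against 31.1 and 33.3 in resting cells, and 35 of 38 genes of DNA replication were called higher than in resting cells, where 12.8% of all genes were. Resting cells were cut at or below the median of an S-phase list, so nothing is read from this count.

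The inhibitors of cyclin-dependent kinases split between the states of the cycle. G2/M cells had less of the p21 gene than resting cells and more of the p27, p18 and p19 genes. Cdkn1a, the p53 target that encodes p21, stood at 47.8 and 54.3 CPM in G2/M cells of KO mouse 1 and KO mouse 2, at 151 and 129 in resting cells and at 46.0 and 41.3 in S-phase cells. Resting cells were above both dividing groups in both mice. Its log2 fold change against resting cells was −1.44 (standard error 0.12, adjusted p = 1.24e-06, edgeR), and against S-phase cells 0.24 (adjusted p = 0.347, edgeR).

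Cdkn1b stood at 158 and 119 CPM in G2/M cells, at 77.1 and 55.9 in resting cells and at 82.1 and 53.4 in S-phase cells. KO mouse 1 was above KO mouse 2 in every group, and G2/M cells were above both other groups in each mouse. The log2 fold change was 1.06 against resting cells (standard error 0.20, adjusted p = 0.00239, edgeR) and 1.04 against S-phase cells (standard error 0.21, adjusted p = 0.00755, edgeR). With under 5% mitochondrial UMIs both calls were lost, at 1.06 (adjusted p = 0.0508, edgeR) and 0.95 (adjusted p = 0.289, edgeR). Cdkn2c, the gene of p18, stood at 75.6 and 71.0 CPM in G2/M cells, 4.96 and 2.45 in resting and 20.8 and 19.9 in S-phase cells. Cdkn2d, the gene of p19, followed the same order with 107 and 110, 8.23 and 7.05, and 20.5 and 16.3 CPM. Both genes vary with the cycle and are given without a test, with log2 fold changes against S-phase cells of 1.85 for Cdkn2c and 2.57 for Cdkn2d.

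Of the D cyclins, which carry growth signals to CDK4 and CDK6 in G1, Ccnd1 and Ccnd2 were lower in G2/M than in S-phase cells. Ccnd3 was lower in both mice but was not called in the fit without a block (67.6 and 86.0 against 99.8 and 130 CPM, −0.57, adjusted p = 0.0792, edgeR). Ccnd1, which the study names as a gene of a basal cluster, stood at 102 and 120 CPM in G2/M cells, 54.7 and 64.1 in resting and 204 and 201 in S-phase cells. G2/M cells lay between the other groups without overlap. Their log2 fold change was 0.91 against resting (standard error 0.14, adjusted p = 0.000298, edgeR) and −0.86 against S-phase cells (standard error 0.13, adjusted p = 0.000957, edgeR). Set against all other basal cells in place of resting ones, Ccnd1 had a log2 fold change of 0.02 (adjusted p = 0.957, edgeR). Ccnd2 stood at 642 and 693 CPM in G2/M cells, near the 598 and 724 of resting cells and below the 1077 and 1195 of S-phase cells, a log2 fold change of −0.77 against the latter (standard error 0.12, adjusted p = 0.000903, edgeR). Cdk4 (−0.45, adjusted p = 0.0186, edgeR) and Cdk6 (−0.46, adjusted p = 0.0208, edgeR) were also lower than in S-phase cells, and in cells of 10000 to 30000 UMIs Cdk6 was not called (−0.49, adjusted p = 0.0511, edgeR). In all, 8 of 16 tested genes of D cyclins, their kinases and CDK inhibitors were called higher and 1 lower against resting cells, where 12.8% and 8.4% of all genes were, and 4 and 4 against S-phase cells, where 4.18% and 2.52% were. Those called higher include Cdkn3, Cdkn2c and Cdkn2d, which vary with the cycle by which the groups were cut. These counts are therefore a description, and nothing is read from them.

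**Figure D4:**
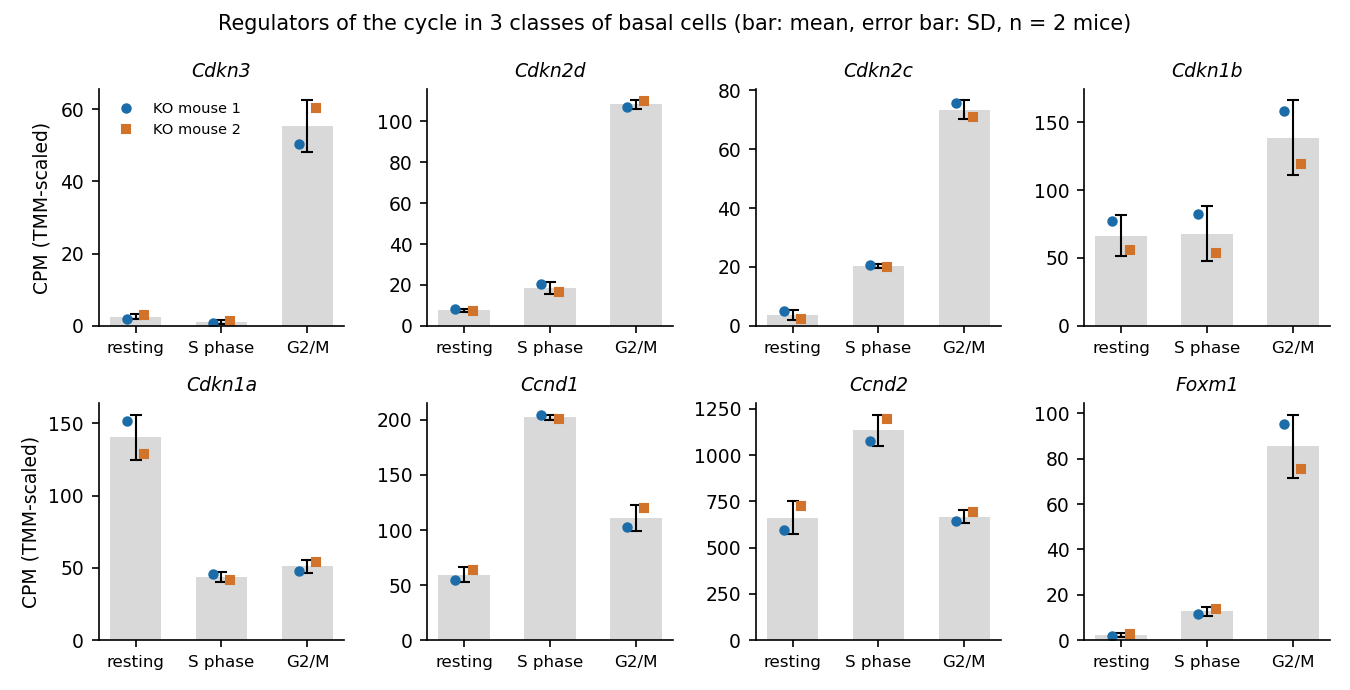
TMM-scaled CPM of 8 regulators of the cycle in resting, S-phase and G2/M basal cells, with bars for the mean, error bars for the SD of 2 mice, circles for KO mouse 1 and squares for KO mouse 2. Cdkn3, Cdkn2d, Cdkn2c, Cdkn1b and Foxm1 are highest in G2/M cells, Ccnd1 and Ccnd2 in S-phase cells (1077 and 1195 CPM for Ccnd2) and Cdkn1a in resting cells (151 and 129 CPM).

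The regulators of late cell cycle genes include genes that themselves cycle, so their counts are a description. Against resting cells 10 of 13 were called higher (median log2 fold change 1.07), where 12.8% of all genes were, and against S-phase cells 5 of 13, where 4.18% were. Foxm1 stood at 95.4 and 75.6 CPM in G2/M cells and at 11.3 and 13.9 in S-phase cells (log2 fold change 2.72, standard error 0.20), without a test since it cycles with the rule genes. Mybl2 stood at 24.4 and 22.3 CPM in G2/M and at 31.4 and 29.4 in S-phase cells. Of the genes of NF-Y, the factor that binds CCAAT, Nfyb and Nfyc were called and Nfya was not (0.64, adjusted p = 0.228, edgeR). Nfyb went from 63.7 and 73.1 CPM in S-phase cells to 105 and 114 in G2/M cells (log2 fold change 0.67, adjusted p = 0.00589, edgeR), and Nfyc from 35.4 and 35.6 to 58.6 and 65.3 (0.81, adjusted p = 0.0196, edgeR). With the top 25% of the S-phase list taken as S-phase cells, Nfyc was not called (0.66, adjusted p = 0.0529, edgeR). E2f8, a partner of E2f7, stood at 40.1 and 41.8 CPM against 22.9 and 22.5 in S-phase cells, likewise without a test.

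Some genes of cell junctions and many of early differentiation were called lower in G2/M basal than in resting basal cells. Of 24 tested genes of desmosomes, adherens and gap junctions 10 were called lower and 0 higher (median log2 fold change −0.55), and of 24 tested genes of early differentiation 15 were called lower and 0 higher (−0.84), against 8.4% lower among all genes. The other 14 and 9 were not called. With cells that held transcripts of Krt79, Cidea or late envelope genes limited, as set out below, 6 junction genes were called lower (median −0.29) and 10 of 23 differentiation genes (−0.55). Perp, which encodes a desmosomal membrane protein, stood at 1474 and 1374 CPM in G2/M cells and at 2305 and 2038 in resting cells (log2 fold change −0.61, standard error 0.11, adjusted p = 0.00142, edgeR). Dsp, the gene of desmoplakin, which ties desmosomes to keratin, went from 1157 and 1003 CPM in resting to 730 and 698 in G2/M cells (−0.60, adjusted p = 0.00879, edgeR). Ppl, the periplakin gene, went from 221 and 203 to 118 and 104 CPM (−0.93, adjusted p = 0.000108, edgeR). Dsc3, a desmosomal cadherin gene, went from 483 and 421 to 268 and 258 CPM (−0.78, adjusted p = 0.000793, edgeR). In these 4 genes neither mouse's G2/M value reached the lower resting value.

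Sfn, the gene of 14-3-3σ, was nearly equal between the mice, with 501 and 522 CPM in G2/M and 891 and 894 in resting cells (log2 fold change −0.80, standard error 0.13, adjusted p = 0.000773, edgeR). With under 5% mitochondrial UMIs Sfn was not called (−0.75, adjusted p = 0.127, edgeR). The receptor gene Notch1, which promotes the exit from the basal layer, stood at 109 and 114 CPM against 172 and 182 (−0.66, adjusted p = 0.00105, edgeR). Klf4, a transcription factor gene of the barrier, stood at 275 CPM in both mice against 438 and 364 (−0.54, adjusted p = 0.00492, edgeR). Its call was lost with under 5% mitochondrial UMIs (−0.64, adjusted p = 0.167, edgeR). Ly6d, a surface antigen gene of stratified epithelia, stood at 1544 and 1168 CPM against 2761 and 2199 (−0.87, adjusted p = 0.00680, edgeR), and against all other basal cells it missed the threshold (−0.56, adjusted p = 0.0832, edgeR).

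Markers of other cells moved with this comparison. Resting cells held 3698 and 965 CPM of Krt79, against 381 and 201 in G2/M cells. Sums over marker lists in this paragraph are CPM without TMM scaling. Resting cells held 211 and 135 CPM of 4 sebaceous markers, against 35.5 and 39.7 in G2/M cells. Of the sebaceous markers 4 of 4 were called lower in G2/M cells, where 8.4% of all genes were, and Mgst1 was the most abundant in them. The 3 granular markers in the files, led by Lor, summed to 111 and 297 CPM in resting cells and to 49.1 and 71.4 in G2/M cells, also without TMM scaling. Langerhans cell markers summed to 31.8 and 80.5 CPM in resting cells and to 5.86 and 24.4 in G2/M cells. Of 7 tested, 1 was called lower, C1qb. Of the 10 genes with the largest fall, 8 were late cornified envelope genes (Lce1d, Lce1l, Lce1c, Lce1g, Lce1a2, Lce1m, Lce1b and Lce1a1), and the others were Ccer2 and Cyp2g1. Krt79 itself had a log2 fold change of −3.01 (adjusted p = 0.0104, edgeR; 0.214 with DESeq2). Lce1m, for example, stood at 4.32 and 4.22 CPM in G2/M cells against 41.6 and 154 in resting cells (log2 fold change −4.53, adjusted p = 6.44e-05, edgeR). With every group limited to cells of at most 2 UMIs of Krt79, at most 1 of Cidea and at most 1 of the late envelope genes, the counts of both lists fell as given above. Gjb2 (from −2.13 to −0.71, adjusted p = 0.112, edgeR), Gjb6 (from −1.96 to −0.91, adjusted p = 0.171), Elovl4 (from −2.79 to −0.73, adjusted p = 0.285) and Lce1m itself (−0.63, adjusted p = 0.214) lost their calls. Gjb2 and Gjb6 encode connexins and Elovl4 an enzyme of very long fatty acids.

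Of 23 immediate early and stress genes 6 were called lower than in resting cells (against 8.4% of all genes), Jun, Jund, Ier2, Myc, Zfp36 and the heat shock gene Hspa1a, and 1 higher (against 12.8%). Jun stood at 1407 and 1047 CPM in G2/M cells and at 2508 and 2050 in resting cells (log2 fold change −0.89, standard error 0.19, adjusted p = 0.00453, edgeR). Ier2 stood at 230 and 168 CPM against 498 and 372 (−1.14, adjusted p = 0.000475, edgeR), and Myc at 6.79 and 5.06 against 19.3 and 17.9 (−1.68, adjusted p = 0.000279, edgeR). With under 5% mitochondrial UMIs the call of Myc was lost (−1.37, adjusted p = 0.0757, edgeR). Fos was not called (645 and 356 CPM against 1089 and 716, −0.85, adjusted p = 0.0554, edgeR). The gene called higher was the chaperone gene Hsp90aa1, which stood at 583 and 637 CPM against 316 and 360 (0.85, adjusted p = 8.05e-05, edgeR). A block for the mouse raised this to 14 lower and 2 higher, and the shares of all genes to 15.5% and 17.7%. Against S-phase cells 0 of the 23 genes were called by edgeR without a block (median log2 fold change −0.23). In that edgeR fit 1 of the genes had an unadjusted p under 0.05. The genes are known to respond to dissociation of tissue, and the part of the overnight separation in these levels was not tested.

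Genes of the basement membrane went partly the other way. Col4a1 and Col4a2, the genes of the collagen IV network, stood at 177 and 156 CPM and at 83.6 and 77.9 CPM in G2/M cells, against 79.9 and 85.4 and against 41.3 and 46.0 in resting cells. Their log2 fold changes were 1.01 (standard error 0.20, adjusted p = 0.00279, edgeR) and 0.88 (standard error 0.14, adjusted p = 0.000376, edgeR). Hspg2, which encodes perlecan, rose by 0.78 (adjusted p = 0.000222, edgeR), from 52.9 and 51.1 CPM to 98.1 and 81.0. Against all other basal cells Col4a1 (0.35, adjusted p = 0.242, edgeR) and Col4a2 (0.30, adjusted p = 0.140, edgeR) were no longer called. Hemidesmosome genes, which hold the cell to the membrane, include 3 that were not called. Itga6 stood at 213 and 201 CPM against 242 and 217 (−0.15, adjusted p = 0.462, edgeR), Itgb4 at 161 and 156 against 146 and 154 (0.08, adjusted p = 0.666, edgeR), and Col17a1 at 375 and 310 against 440 and 366 (−0.24, adjusted p = 0.446, edgeR). Of 17 hemidesmosome and basement membrane genes 5 were called higher and 1 lower, Plec, against 12.8% and 8.4% of all genes. Of 8 tested integrin genes 1 was called higher, Itgb1 (0.34, adjusted p = 0.0230, edgeR), which was not called with doublets left out (0.29, adjusted p = 0.0874, edgeR), against all other basal cells (0.15, adjusted p = 0.327, edgeR) or with Krt79, Cidea and late envelope genes limited (0.22, adjusted p = 0.0941, edgeR). Against S-phase cells 0 of the 17 hemidesmosome and basement membrane genes were called by edgeR without a block (median log2 fold change −0.21). Of these genes 4 had an unadjusted p under 0.05 in that edgeR fit, 1 higher and 3 lower.

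The hedgehog targets Ptch1 and Gli1, of a growth pathway of the follicle and of basal cell tumours, were higher in G2/M than in resting cells. Ptch1, the receptor gene that the pathway itself induces, stood at 230 and 221 CPM in G2/M cells against 89.9 and 103 in resting cells (log2 fold change 1.23, standard error 0.18, adjusted p = 0.000221, edgeR). Gli1, its transcription factor gene, stood at 32.7 and 32.9 CPM against 11.8 and 12.0 (1.46, standard error 0.14, adjusted p = 5.86e-06, edgeR), and in both genes the groups were well apart. Without TMM scaling, Ptch1 stood at 230 and 218 CPM in G2/M basal cells. S-phase basal cells held 228 and 250 CPM of it and G2/M follicle cells 309 and 268. Of 22 tested genes of the hedgehog, EGF and BMP pathways 4 were called higher, among them Ptch1, Gli1 and the growth factor gene Tgfb1, and 2 were called lower. Of 22 tested Wnt pathway genes 0 were called higher and 1 lower, Sfrp1. Among all genes 12.8% were called higher and 8.4% lower.

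Ptn, the gene of the growth factor pleiotrophin, was among the genes that separated dividing from resting cells. It stood at 489 and 455 CPM in G2/M cells, 456 and 449 in S-phase cells and 135 and 162 in resting cells (log2 fold change against resting cells 1.67, standard error 0.14, adjusted p = 7.24e-07, edgeR). Krt15 moved in the opposite direction, with 3535 and 2791 CPM in G2/M cells and 6420 and 5430 in resting cells (−0.91, standard error 0.18, adjusted p = 0.00316, edgeR). With the limits on Krt79, Cidea and late envelope genes its call was lost (−1.07, adjusted p = 0.128, edgeR), as it was at a minimum of 10 UMIs of the rule genes (−0.88, adjusted p = 0.134, edgeR) and with under 5% mitochondrial UMIs (−0.63, adjusted p = 0.111, edgeR). Of the genes the study names for basal clusters, Wnt4 was lower (548 and 558 against 807 and 892 CPM, −0.62, adjusted p = 0.0440, edgeR), and DESeq2 did not call it (adjusted p = 0.0775). Against all other basal cells its log2 fold change was −0.55 (adjusted p = 0.108, edgeR), and with under 5% mitochondrial UMIs it turned to 0.16 (adjusted p = 0.840, edgeR). Hmga2, a chromatin protein gene of growing tissue, was higher (16.4 and 21.4 against 5.41 and 8.16 CPM, 1.47, adjusted p = 0.00309, edgeR), but not against all other basal cells (0.50, adjusted p = 0.214, edgeR). H19 (0.69, adjusted p = 0.189), Igf2 (0.61, adjusted p = 0.139), Dcn (0.72, adjusted p = 0.161) and Sox4 (0.01, adjusted p = 0.962) were not called by edgeR. Against S-phase cells neither Krt15 nor Wnt4 was called by edgeR without a block. Without TMM scaling, Krt15 stood at 3148 and 2304 CPM in S-phase cells and at 3534 and 2749 in G2/M cells.

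Genes that orient the spindle in the basal layer were chosen because that axis sets whether a daughter stays or leaves. Gpsm2, which encodes LGN, stood at 139 and 155 CPM in G2/M cells, at 58.5 and 46.8 in S-phase and at 40.2 and 38.3 in resting cells. The log2 fold change was 1.91 against resting (standard error 0.14) and 1.5 against S-phase cells (standard error 0.14), without a test since the gene varies with the cycle. Numa1, whose product binds LGN and pulls on astral microtubules through dynein, stood at 86.1 and 78.1 CPM against 51.5 and 52.3 in S-phase cells (0.66, adjusted p = 0.0318, edgeR), a call lost with doublets left out (0.60, adjusted p = 0.0600, edgeR). The G protein subunit genes that anchor LGN differed from each other. Gnai2 was higher than in resting cells (261 and 274 against 163 and 170 CPM, 0.69, adjusted p = 0.000226, edgeR) and Gnai1 lower (113 and 98.2 against 167 and 148 CPM, −0.58, adjusted p = 0.00481, edgeR). With under 5% mitochondrial UMIs neither was called, with 0.53 for Gnai2 (adjusted p = 0.156, edgeR) and −0.12 for Gnai1 (adjusted p = 0.864, edgeR). Of 21 tested genes of this list 3 were called higher and 4 lower against resting cells, against 12.8% and 8.4% of all genes.

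**Figure D5:**
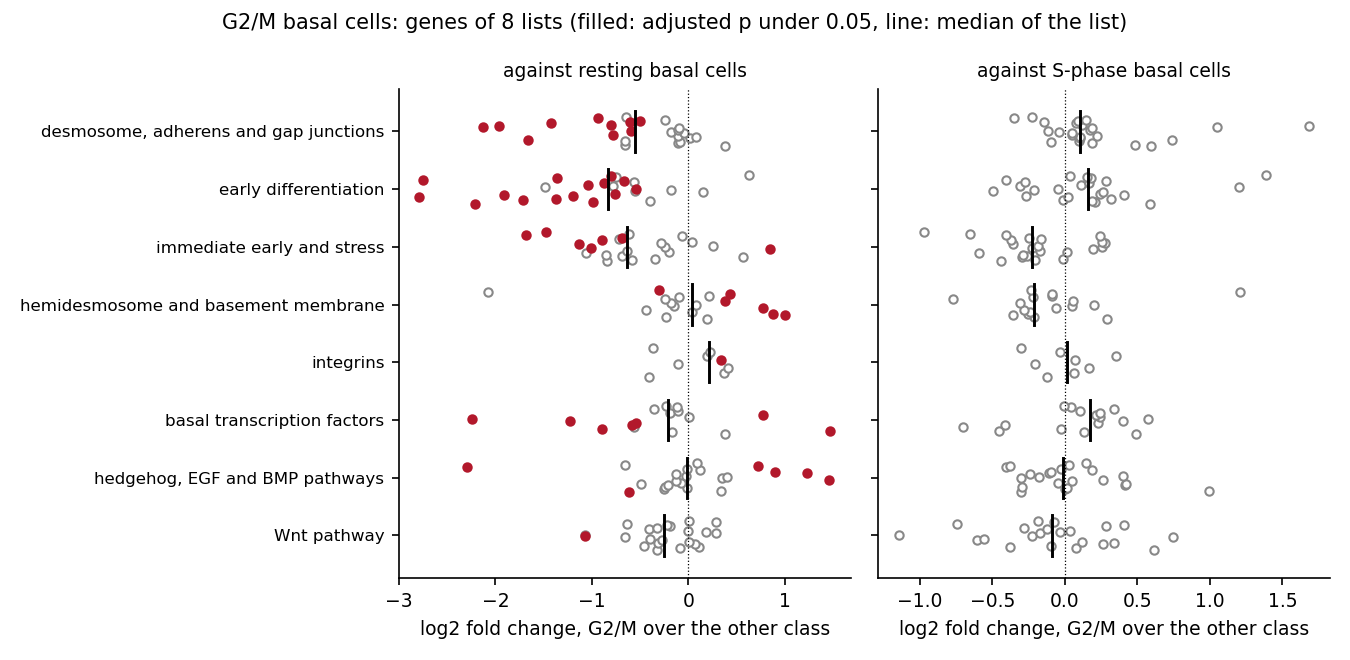
Log2 fold changes of G2/M basal cells over resting basal cells (left) and over S-phase basal cells (right) for the tested genes of 8 lists, with filled points for an adjusted p under 0.05 from edgeR without a block for the mouse and a black line at the median of the list. Most junction and early differentiation genes lie to the left of 0 against resting cells (medians −0.55 and −0.84) and scatter around 0 against S-phase cells (medians 0.10 and 0.16), where none is filled.

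Against S-phase basal cells, fewer genes were called. In the fit without a block for the mouse, none of them was on the lists of junction and early differentiation genes. Of all genes 737 (6.7%) were called, 460 (4.18%) higher and 277 (2.52%) lower, and with the mouse as a block 1545. The lists in this paragraph are given only for fits without that block. Of the 24 junction genes and the 24 early differentiation genes none was called by edgeR without a block for the mouse. In that fit 2 of each list had an unadjusted p under 0.05, and DESeq2 called none. The integrin list and the hedgehog, EGF and BMP list also had 0 calls by edgeR and by DESeq2, with 0 genes at an unadjusted p under 0.05. A p that misses the threshold does not show that the groups are alike. The log2 fold changes ran from −0.35 for Ppl to 1.68 for Gjb6 among the junction genes, and from −0.49 for Jag1 to 1.39 for Tgm3 among those of early differentiation. Perp, for example, had a log2 fold change of −0.15 (adjusted p = 0.524, edgeR) and Sfn of 0.04 (adjusted p = 0.925, edgeR). The difference between the contrast with resting cells and the contrast with S-phase cells was not itself tested, and both share the G2/M cells.

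Genes of the cycle are given against S-phase cells as a description. Cenpa, the gene of the centromeric histone, stood at 566 and 532 CPM in G2/M cells against 21.0 and 16.2 in S-phase cells. Cdc20 stood at 406 and 423 against 23.1 and 23.4, and Plk1, the gene of polo-like kinase 1, at 112 and 120 against 7.55 and 6.90. Ung, which encodes the glycosylase that removes uracil from new DNA, stood at 12.7 and 11.5 CPM in G2/M cells and at 138 and 162 in S-phase cells. E2f1 stood at 11.4 and 8.27 CPM against 60.0 and 64.0. Of the 38 replication genes 29 were called lower and 0 higher than in S-phase cells, where 2.52% and 4.18% of all genes were. All 30 spindle and cytokinesis genes were called higher. Cdkn3, outside the mitotic lists, had one of the widest gaps, with 50.3 and 60.4 CPM against 0.708 and 1.41 (log2 fold change 5.58, standard error 0.32).

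G2/M follicle cells passed the same limit of 6 UMIs on the 3 rule genes. They were deeper, with medians of 22719 and 23642 UMIs, so the limit asked for a smaller share of their UMIs, and genes of mitosis are given as a description here too. As for doublets, 11 of 27 (40.7%) and 58 of 112 (51.8%) were called as doublets, against 2.54% and 5.95% of the G2/M basal cells. In all, 270 genes (2.45%) were called, 96 (0.872%) higher and 174 (1.58%) lower in G2/M basal cells, 621 with the mouse as a block and 104 with called doublets left out, 12 higher and 92 lower. With no keratin limit on the follicle group (780 and 1113 cells) 2830 were called, 1462 higher and 1368 lower.

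Of 95 genes in 4 lists of mitosis 30 were called higher in G2/M basal than in G2/M follicle cells, where 0.872% of all genes were, and 65 were not called. These were 10 of 24 mitotic kinases, cyclins and checkpoint genes (median log2 fold change 0.54), 4 of 20 kinetochore genes (0.50), 12 of 30 spindle and cytokinesis genes (0.57) and 4 of 21 chromosome structure genes (0.29), against a median of 0.02 over all genes. With called doublets left out, 1, 0, 1 and 0 genes of the 4 lists were called, with medians of 0.42, 0.32, 0.35 and 0.19. Among all genes 12 were then called higher. With the limit set as 6 UMIs per 10000 UMIs of the cell they were 2, 2, 2 and 0, and in cells of 10000 to 30000 UMIs 1, 2, 6 and 0. Among all genes the last setting left 201 calls, 46 of them higher. Cdc20 stood at 406 and 423 CPM in basal and at 280 and 224 in follicle cells (log2 fold change 0.75). Aurkb stood at 177 CPM in both mice against 118 and 103. Incenp, the scaffold gene of the same passenger complex, stood at 157 and 171 against 104 and 95.3, and Arl6ip1, which shapes the endoplasmic reticulum, at 876 and 939 against 491 and 541. In these 4 genes both basal values were above both follicle values.

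Of 24 tested genes of a follicle list 8 were called lower in G2/M basal cells, 0 higher and 16 in neither direction, where 1.58% of all genes were called lower. Since Lhx2 chose the groups, the count is a description and the genes are given without test. Krt17, the most abundant of the list, stood at 2151 and 1611 CPM in basal against 1652 and 1924 in follicle cells, with the mice in opposite order. Of those called lower, Tbx1, a transcription factor gene of follicle stem cells, stood at 2.78 and 1.69 CPM against 45.4 and 42.9, and Shh, the hedgehog ligand gene of the follicle tip, at 0.617 and 1.01 against 18.2 and 16.3. Tgfb2, a growth factor gene, stood at 8.02 and 7.42 against 36.3 and 44.7. Hoxc13, a transcription factor gene of hair differentiation, stood at 2.16 and 2.87 against 22.7 and 35.8.

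The attachment genes of the G2/M basal cells were split against follicle cells. Of 17 hemidesmosome and basement membrane genes 4 were called higher (Col7a1, Lama3, Itga6 and Itgb4) and 2 lower, and 11 were not called. Among all genes 0.872% were called higher and 1.58% lower. Itga6 stood at 213 and 201 against 138 and 134 CPM (0.61, standard error 0.15, adjusted p = 0.0481, edgeR), Itgb4 at 161 and 156 against 106 and 108 (0.57, adjusted p = 0.0311, edgeR), and Col7a1, the gene of the anchoring fibrils, at 110 and 118 against 80.2 and 69.8 (0.64, adjusted p = 0.0319, edgeR). With called doublets left out, Itga6 (0.66, adjusted p = 0.181), Itgb4 (0.71, adjusted p = 0.0766) and Col7a1 (0.67, adjusted p = 0.131) kept their size but not their edgeR calls. With the limit as a share of UMIs, Itga6 (0.53, adjusted p = 0.0683), Itgb4 (0.58, adjusted p = 0.0539) and Col7a1 (0.70, adjusted p = 0.0653) were not called by edgeR either, nor was Itga6 in cells of 10000 to 30000 UMIs (0.56, adjusted p = 0.0531) or with DESeq2 size factors (0.59, adjusted p = 0.0564). Laminin genes that belong to other basement membranes as well went the opposite way. Lamb1 stood at 6.17 and 6.92 CPM against 30.3 and 34.4 (−2.32, standard error 0.31, adjusted p = 0.00152, edgeR) and Lamc1 at 50.6 and 46.9 against 124 and 87.6 (−1.04, standard error 0.17, adjusted p = 0.00551, edgeR).

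Among signals, Wnt10a was higher in G2/M basal than in G2/M follicle cells (67.9 and 68.3 against 21.2 and 38.4 CPM, log2 fold change 1.01, standard error 0.20, adjusted p = 0.0170, edgeR). Ccnd1 was lower, with 102 and 120 CPM against 171 and 235 (−0.91, standard error 0.14, adjusted p = 0.00505, edgeR). Igfbp2, which encodes a binding protein of insulin-like growth factors, was higher (172 and 134 against 37.8 and 65.4 CPM, 1.41, standard error 0.23, adjusted p = 0.00674, edgeR). Defb1, a gene of an antimicrobial defensin, stood at 29.9 and 28.5 CPM against 7.57 and 10.7 (1.54, adjusted p = 0.00926, edgeR), and Gas2l3, which links actin and microtubules in the midbody, at 64.8 and 66.3 against 13.6 and 26.2 (1.52, without a test since it acts in division). In these 5 genes the groups did not overlap. With called doublets left out, Defb1 missed the threshold (1.24, adjusted p = 0.102, edgeR), as it did with the limit as a share of UMIs (1.35, adjusted p = 0.0537) and in cells of 10000 to 30000 UMIs (1.03, adjusted p = 0.0624). Of 22 tested Wnt pathway genes 2 were called higher and 6 lower in G2/M basal cells, against 0.872% and 1.58% of all genes.

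G2/M cells with the keratins of the suprabasal layers were few, 5 in KO mouse 1 and 6 in KO mouse 2, which limits this comparison to large differences. In each mouse 1 of them was called as a doublet, and in KO mouse 1 a single cell held 76872 of the 157059 UMIs. The keratins of this group differed between the mice. Krt1 and Krt10 had a median share of UMIs of 1.21% in KO mouse 1 and 2.96% in KO mouse 2. For Krt14 and Krt5 the medians were 2.46% and 0.608%, against 1.79% and 1.82% in G2/M basal cells. By these medians the group held the basal keratins as well in KO mouse 1, so the 2 sums are not of like cells. Of all genes 401 (3.64%) were called, 232 (2.11%) higher and 169 (1.54%) lower in G2/M basal cells. With DESeq2 size factors 143 were higher and 189 lower, and with DESeq2 itself 143 and 376. The median over all genes was 0.17 on the log2 scale with TMM and 0.07 with those factors, so levels are best read relative to it. Keratins of differentiation chose the groups, so differentiation genes are given as a description, and 13 of 24 were called lower (median −1.45). Sfn stood at 501 and 522 CPM in G2/M basal and at 1163 and 1169 in G2/M suprabasal cells, and Ly6d at 1544 and 1168 against 7313 and 4794.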

How the data were processed

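The authors deposited filtered UMI counts per gene and cell barcode for each mouse, made from 10x libraries with Cell Ranger 3.0.2 on mm10 according to the submitters' processing notes. The files held 27998 genes. From here, cells were filtered and grouped by the limits given above, and doublets were marked by Scrublet (scanpy 1.11.5) at a fixed score of 0.2, because its automatic threshold called 2 cells in KO mouse 1. Counts were summed per mouse and group (10 sums, 5 groups) and tested by edgeR 4.0.16 (R 4.3.3) with its quasi-likelihood test, without a block, after edgeR's filter on low counts. The method was tested on simulated data. Unlike the real sums, the simulated sums were drawn independently, with a common mean per gene, a common spread and no effect of the mouse. Of 194 genes given a change of 1 on the log2 scale it recovered 77.3%, 75.3%, 52.1% and 9.79% against resting, S-phase, follicle and suprabasal cells. Of its calls 2.60%, 3.31%, 2.88% and 5% were of genes given no change. Sums with the same number come from the same mouse, and their deviations correlated between −0.0655 and 0.302 over 11003 genes. The members and gene lists were chosen with earlier results of these data known. Named were members of these lists, the 10 genes with the largest change in each direction (adjusted p under 0.05, at least 20 CPM in the higher group) and genes the study names; the other examples were chosen after their values were seen. Promoters came from RefSeq (GRCm38.p6) and gene positions from GENCODE. As alternatives, DESeq2 1.42.0 or its scaling replaced edgeR's, the filter on low counts was dropped, a block for the mouse was added, and the limits on cells were changed.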

Additional observations from a re-analysis of the deposited data

How the results depend on the processing

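Each setting was changed on its own, and the limits on Krt79, Cidea and late envelope genes, the follicle group without a keratin limit, the shared barcodes and the fit without suprabasal sums were added after the data were seen. With the mouse as a block (a replicate block), 3653, 1545 and 621 genes were called against resting, S-phase and follicle cells, and the suprabasal count stayed within 1.5 times. Cells with under 5% mitochondrial UMIs left 781, 161, 11 and 42 calls for the 4 groups, from 52 and 191 G2/M basal cells and from 0 and 1 suprabasal cells. The 42 calls thus rest on 1 cell of 1 mouse, which was assumed to vary like the other groups, and are no test of the suprabasal group. Against all other basal cells 1512 genes were called. Against follicle cells there were 578 calls with no filter on low counts, 104 with doublets left out and 2830 with no keratin limit on the follicle group (780 and 1113 cells). Against suprabasal cells there were 687 with no filter and 186 with the rule as a share of UMIs. The share of G2/M cells among basal cells was 6.90% with the rule as a share of UMIs, 6.22% at a minimum of 10 UMIs, 10.1% at 4, 15.3% in cells of 10000 to 30000 UMIs and 14.8% with under 5% mitochondrial UMIs, and without replicates in turn it was 8.05% to 8.70%. Under the same mitochondrial limit Wnt4 turned to 0.16 against resting cells. The causes were not tested.

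Of the fold changes tested by name, 13 of 33 against resting cells, 0 of 8 against S-phase cells and 0 of 9 against follicle cells kept their call in every setting that gave a value. The limit of 5% mitochondrial UMIs, with fewer cells, ended 33 calls (16 against resting cells, all 8 against S-phase cells and all 9 against follicle cells), leaving doublets out 6, and all other basal cells as the reference 8. Under that mitochondrial limit the 8 against S-phase cells kept their direction. Ccnd1 stood at −0.82, Ccnd2 at −0.78, Cdk4 at −0.45 and Cdk6 at −0.65 on the log2 scale. Cdkn1b stood at 0.95, Nfyb at 0.94, Nfyc at 0.82 and Numa1 at 0.50. With 2 mice, leaving 1 out gives a value with no test. Few follicle and suprabasal cells limited those comparisons, and genes near the limit of detection, such as receptors of acetylcholine, were not resolved at this depth.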
